A study of Arabidopsis thaliana with 3 samples.

Results

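The 10 genes described here form the core of the circadian clock of *Arabidopsis thaliana*. They were chosen by name from the known clock, with earlier results of these data known, and all 10 were found by locus identifier among the 27444 protein-coding genes of chromosomes 1 to 5 in the TAIR10.1 annotation. They are the morning MYB transcription factors *CCA1* (AT2G46830) and *LHY* (AT1G01060), the pseudo-response regulators *PRR9* (AT2G46790), *PRR7* (AT5G02810), *PRR5* (AT5G24470) and *TOC1* (AT5G61380), the evening complex members *ELF3* (AT2G25930) and *LUX* (AT3G46640), and *GI* (AT1G22770) and *ZTL* (AT5G57360). DNA methylation was measured by bisulfite sequencing of mature leaves, in 2 h3.3kd libraries (h3.3kd 1 and h3.3kd 2) and 1 WT library, all in the Col-0 ecotype. The h3.3kd plants carried the T-DNA insertion alleles *htr4-2* and *htr8-2* and an artificial microRNA against *HTR5* driven by the *HTR5* promoter, so that *HTR4*, *HTR5* and *HTR8*, the genes for the histone variant H3.3, were all targeted. Plants grew in short days and were shifted to long days before harvest. The h3.3kd libraries came from a pair of knockdown lines made with the same artificial microRNA, and which library is which line was not given in the sources used here, nor were the hour of harvest and the number of plants in a library. Only DNA methylation was analysed here.

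The plant clock is a loop of repressors that follow each other through the day. CCA1 and LHY peak at dawn and repress evening genes through a short promoter motif, the evening element. The PRR proteins appear in turn through the day and repress *CCA1* and *LHY*, and at dusk the evening complex of ELF3, ELF4 and LUX represses *PRR9* and other day genes. ZTL, a blue-light receptor with an F-box, marks TOC1 and PRR5 for degradation, and GI stabilises ZTL. Gene body methylation is methylation of cytosines before guanine (CG sites) inside transcribed genes. It is copied at each replication by MET1 and is found mainly in the middle and 3′ part of moderately expressed genes.

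The 3 libraries were sequenced to like depth. They held between 822515332 and 842326850 calls, where a call is 1 read of 1 cytosine, and a mean of 19.2 to 19.7 calls per reference cytosine. Over all protein-coding gene bodies summed, the CG level was 14.96% in h3.3kd 1 and 14.56% in h3.3kd 2, against 16.66% in WT. The level of a region is the share of its calls that read C. Each h3.3kd library was compared with WT by a two-sided Fisher's exact test on these calls, with Benjamini-Hochberg adjustment (FDR) over all features tested. These tests compare libraries and not genotypes, because WT had 1 library, and an exact permutation of 1 against 2 libraries cannot fall below p = 0.333. The spread between h3.3kd 1 and h3.3kd 2 is the only replicate error. Differences between the lines and between libraries cannot be told apart in it, and the intervals given cover counting error only. Intervals and tests treat calls as independent, although 1 read can give calls at several cytosines, so they can understate that error too.

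The places where CG methylation of the clock genes differed most are shown first by their sequence. Both are 100-bp tiles on a fixed grid, read from the RefSeq genome in TAIR10.1 coordinates and on the strand of the gene, with their CG sites in capitals. The first, in a coding exon of *ELF3* (chr2:11062401-11062500, plus strand), had the largest loss. It was methylated at 4.55% in h3.3kd 1 and 1.92% in h3.3kd 2, against 94.4% in WT. The second, across an intron and a coding exon of *PRR7* (chr5:640401-640500, minus strand), had the largest gain. It was methylated at 51.9% in h3.3kd 1 and 47.4% in h3.3kd 2, against 1.15% in WT. Each holds 2 CG sites.
ELF3 tile: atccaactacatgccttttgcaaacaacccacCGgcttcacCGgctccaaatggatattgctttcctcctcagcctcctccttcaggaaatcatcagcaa
PRR7 tile: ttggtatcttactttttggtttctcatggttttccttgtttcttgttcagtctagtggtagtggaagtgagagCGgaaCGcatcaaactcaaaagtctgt
In the *ELF3* tile both sites were called lower. In the *PRR7* tile the gain lay at the dyad at 640426, with 90.2% and 94.7% in h3.3kd 1 and 2, against 2.33% in WT.

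**Figure D1:**
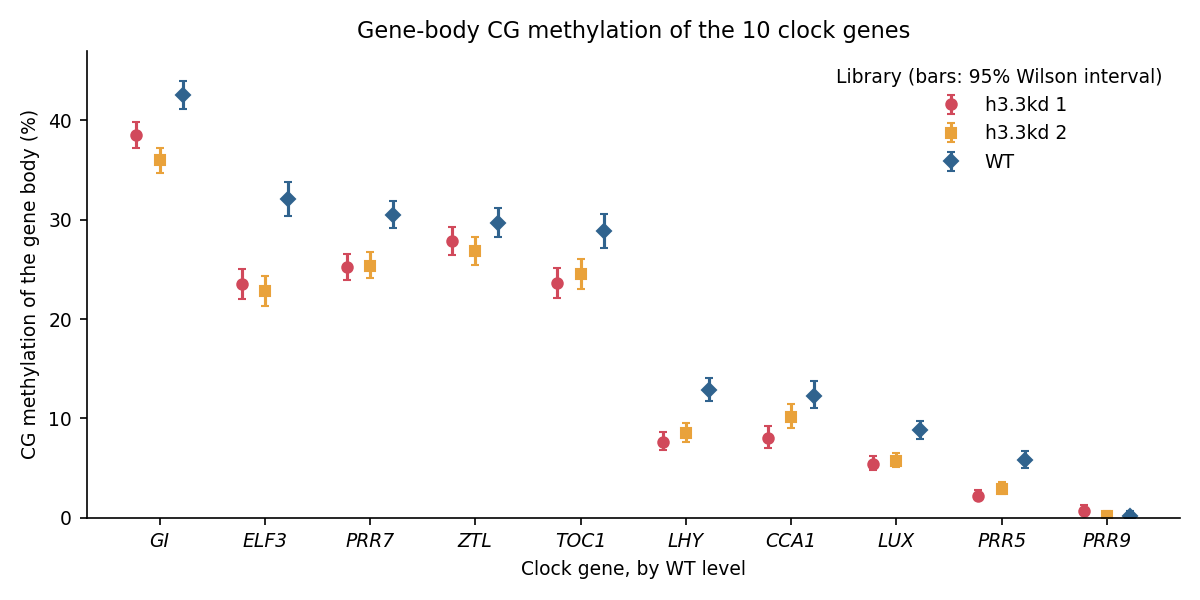
Gene-body CG methylation (%) of the 10 clock genes, ordered by WT level, with 1 point for each library (h3.3kd 1, h3.3kd 2 and WT) and bars for the 95% Wilson interval. Both h3.3kd points lie below the WT point in 9 genes, by most in *ELF3* (23.5% and 22.8%, against 32.1% in WT). *PRR9*, which has no calls in its last 734 bases, is close to 0 in all 3 libraries.

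In 9 of the 10 clock genes both h3.3kd libraries had less CG methylation over the gene body than WT. The tenth, *PRR9*, was near 0 in the part with calls, and its last 734 bases had none. Over all genes tested 51.8% were lower in both. With the calls of the 10 genes summed, the level was 19.1% in h3.3kd 1 and 19.0% in h3.3kd 2, against 23.3% in WT. The median difference of the 10 genes was -3.97 points, beside -0.221 points over all 26970 genes tested, of which 42.2% had a WT level under 2%. The median WT level was 20.9% in the clock genes and 5.18% over all genes tested. None of the 10 differed by 10 points or more in both libraries, the size set for a call at an FDR under 0.01. Over all genes 1.44% were called lower and 0.304% higher by that rule. At 5 points *ELF3* and *PRR7* were lower and 0 higher, beside 8.68% of all genes lower and 1.33% higher. Without a minimum difference, a choice made after seeing the data, 7 of the 10 were lower at an FDR under 0.01 in both libraries, and the background was 19% of genes lower and 4.84% higher. *LUX*, counted among these 7 and the 9 above, differed by only 0.0316 points outside the bases it shares with another gene. At an unadjusted Fisher p under 0.05 in both libraries, a looser rule, 8 genes were lower and 0 higher. The shares of all genes at this threshold and at the unadjusted limma threshold below were not counted. limma on log ratios of C to T calls, which has 1 residual degree of freedom here, had 0 genes past its FDR of 0.05 with 10 points among all genes, and 1 clock gene at an unadjusted p under 0.05 (lower).

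In WT the clock genes spanned levels from 0.182% to 42.6%. *GI* stood highest, above *ELF3* by 10.5 points. *ELF3*, *PRR7*, *ZTL* and *TOC1* followed between 28.9% and 32.1%, and the WT intervals of neighbours in this order overlapped. *LHY* and *CCA1* came next, 16.1 points below *TOC1*, again with overlapping intervals. *LUX*, *PRR5* and *PRR9* closed the order with intervals that did not overlap with those of their neighbours. The place of *PRR9* leaves out its last 734 bases, which had no calls. In the means of h3.3kd *GI* was again first, followed by *ZTL* (27.3%), *PRR7* (25.3%), *TOC1* (24.1%) and *ELF3* (23.1%), so that *ELF3* came last of these and *ZTL* before *PRR7*. *CCA1* came before *LHY*, with h3.3kd values that overlapped, and *LUX*, *PRR5* and *PRR9* followed as in WT.

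Among the morning genes, *LHY* (chromosome 1, 33365 to 37871, minus strand) had a gene-body CG level of 7.66% in h3.3kd 1 and 8.55% in h3.3kd 2, against 12.8% in WT (95% Wilson interval 11.7 to 14.0). The mean difference was -4.72 points, with an SD between the h3.3kd libraries of 0.63 points, and the Fisher FDR was 5.6e-11 and 2.0e-07. *CCA1* (chromosome 2, 19245591 to 19248915, plus strand) had 8.08% in h3.3kd 1 and 10.2% in h3.3kd 2, against 12.3% in WT (11.0 to 13.7). Its h3.3kd 2 library did not pass the threshold against WT (FDR 1.2e-05 and 0.060). CCA1 and LHY are close paralogs that bind the same motif.

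In *LHY* 2 tiles in the middle of the gene were called lower and 0 higher. The larger of these losses, at a coding exon and the edge of an intron (35401 to 35500), was 18.4% and 15% in h3.3kd 1 and 2, against 53.4% in WT. The other, in a coding exon (35001 to 35100), was 64.5% and 48.8%, against 90.8% in WT. In *CCA1* 2 tiles were called lower and 2 higher, and losses and gains lay side by side in and next to its coding exons. The gains were at 19247901 to 19248000, with 30.5% in h3.3kd 1 and 51.1% in h3.3kd 2, against 0% in WT, and at 19248401 to 19248500, with 37.8% and 48.7%, against 2.56% in WT. Between them, the tile at 19248201 to 19248300 had 7.27% and 4.03% in h3.3kd 1 and 2, against 43.1% in WT. The tile at 19247101 to 19247200 had 2.82% and 0% in h3.3kd 1 and 2, against 29.4% in WT.

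Single dyads, a dyad being a CG site with both strands summed, were tested in the same way. At 19248230 the level was 3.45% in h3.3kd 1 and 2.63% in h3.3kd 2, against 94.4% in WT, and at 19247941 it was 47.5% and 82.8%, against 0% in WT. All 4 lower dyads of *CCA1* (19248230, 19248227, 19248132 and 19247160) were under 10% in both h3.3kd libraries and at least 60% in WT. The other higher dyads were at 19247957, with 40% and 67.7% in h3.3kd 1 and 2, against 0% in WT, and at 19248415. In *LHY* the 3 lower dyads (35426, 35021 and 35424) had intermediate levels, from 15.6% to 48.4% in h3.3kd, against 80.6% to 93.5% in WT. A single *LHY* dyad was called higher, at 35860, with 48.8% and 63.0% in h3.3kd 1 and 2, against 0% in WT.

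**Figure D2:**
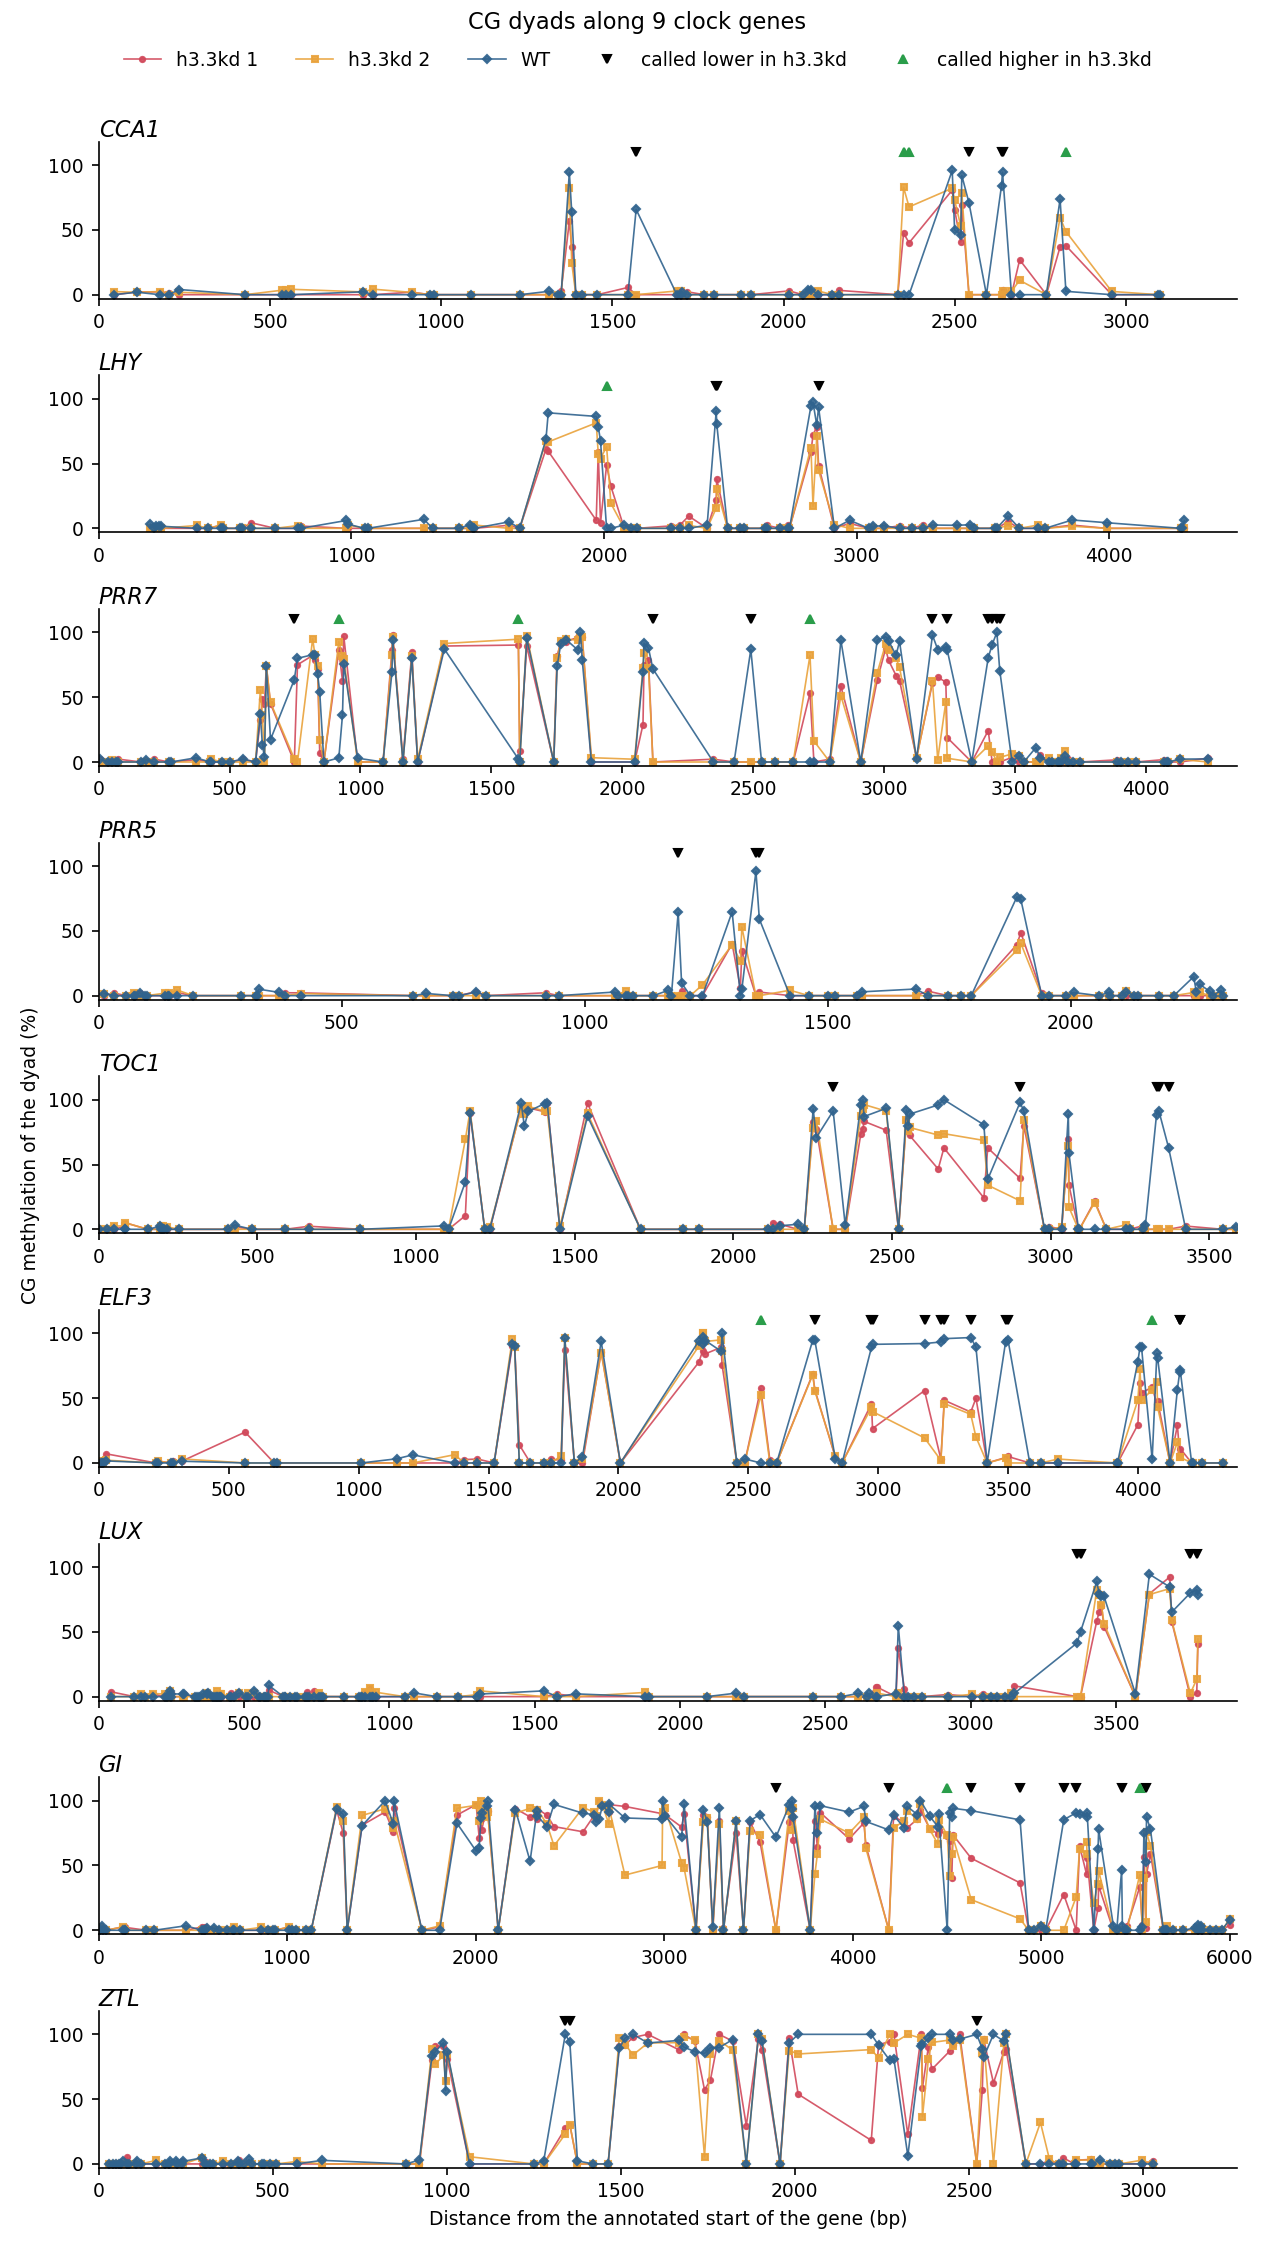
CG methylation (%) of each dyad along 9 clock genes, by distance from the annotated start of the gene (bp), in h3.3kd 1, h3.3kd 2 and WT. Triangles mark the 50 dyads called lower and the 11 called higher in h3.3kd, the lower ones at a median of 76.6% of the length of the gene.

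The pseudo-response regulators ranged from unmethylated, in the part of *PRR9* with calls, to strongly methylated. *PRR9* (chromosome 2, 19232607 to 19235179, plus strand), which acts first in the day, had 0.646% in h3.3kd 1 and 0.187% in h3.3kd 2, against 0.182% in WT, beside a CHH level of 0.443% to 0.509% in the same gene. The 20 dyads in its last 734 bases had no calls here and were not analysed. The 1 kb downstream of *PRR9* had 7.22% and 10.9% in h3.3kd 1 and 2, against 9.94% in WT. The tile of *PRR9* with the largest difference, 19232901 to 19233000, had 0% in both h3.3kd libraries (of 51 and 36 calls), against 2.33% in WT (of 43 calls), and did not pass the test (FDR 1.0 in both).

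*PRR7* (chromosome 5, 637681 to 642030, minus strand), which acts with PRR9 and PRR5 against *CCA1* and *LHY*, had 25.2% in h3.3kd 1 and 25.4% in h3.3kd 2, against 30.5% in WT (29.2 to 31.9). The difference was -5.22 points, with an SD of 0.13 points between the h3.3kd libraries (Fisher FDR 2.6e-07 and 8.0e-07). This SD rests on 2 libraries and was larger within parts of the gene. It was 2.27 points in the last 30% and 3.70 points in the middle 40%. Within the gene the ends moved in opposite directions. The last 30% had 12.2% in h3.3kd 1 and 8.99% in h3.3kd 2, against 29.6% in WT. The first 30% had 26.1% and 25.1%, against 19.98% in WT, a gain of 5.61 points that passed the FDR in both libraries (2.4e-04 and 0.0042) and stayed under 10 points.

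Of the 39 *PRR7* tiles tested, 5 were called lower and 2 higher. Of the losses, 4 lay next to each other from 638501 to 638900 in coding exons, where the level was 28.3% in h3.3kd 1 and 17.6% in h3.3kd 2, against 70.4% in WT. Among them the tile at 638701 to 638800 had 41.6% and 25.0%, against 87.7% in WT, and the tile at 638501 to 638600 had 0.862% and 3.23%, against 49.1% in WT. The fifth, at 639501 to 639600, was at 0% in both h3.3kd libraries (of 45 and 40 calls), against 86.8% in WT (of 38 calls). The gains were the tile printed above and one at 639301 to 639400, with 23.9% and 32.2% in h3.3kd 1 and 2, against 0% in WT. Of the *PRR7* dyads, 9 were called lower and 3 higher. The one at 638598 was at 0% in both h3.3kd libraries, against 100% in WT, and the one at 641112, in an intron, was at 86.1% and 92.9%, against 3.23% in WT. The other lower dyads with the largest differences were at 639538, 638616, 639912 and 638788, all in coding exons. The deposited tables gave the C and T calls of 29.5% to 31.9% of the CG cytosines listed in *PRR7*, and of 21.8% to 27.6% in *LHY*, on separate lines, which were summed.

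*PRR5* (chromosome 5, 8356204 to 8358546, minus strand), a substrate of ZTL, was sparsely methylated, with 2.24% in h3.3kd 1 and 2.91% in h3.3kd 2, against 5.78% in WT (4.97 to 6.72). This was the largest loss relative to WT of the 10 genes, a change of -55.5% (FDR 3.2e-11 and 6.1e-07). The tile at 8357101 to 8357200, in a coding exon, had 0.877% and 1.23% in h3.3kd 1 and 2, against 58.7% in WT, and the tile at 8356601 to 8356700 had 26.9% and 23.1%, against 50.8% in WT. At the dyad at 8357193 the level was 0% in both h3.3kd libraries, against 96% in WT, and the other lower dyads were at 8357353 and 8357186. In *PRR5* 0 dyads were at 60% or more in either h3.3kd library, against 5 in WT.

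*TOC1* (chromosome 5, 24674963 to 24678550, plus strand), the evening member of the family, had 23.6% in h3.3kd 1 and 24.5% in h3.3kd 2, against 28.9% in WT (27.2 to 30.6; FDR 4.0e-05 and 7.5e-04). Its losses reached into the 3′ UTR. Over the 3′ UTR the level was 0.563% in h3.3kd 1 and 0.279% in h3.3kd 2, against 20.3% in WT. The tile at 24678301 to 24678400 had 1.03% and 0%, against 52.0% in WT, and the one before it (24678201 to 24678300) had 0.746% and 0%, against 22.02% in WT. The other tiles, in coding exons, were called lower at intermediate levels, the largest difference being at 24677801 to 24677900, with 61.3% and 53.0% in h3.3kd 1 and 2, against 94.6% in WT. The tile at 24677201 to 24677300 had 46.2% and 54.3%, against 85.3% in WT, and the tile at 24677601 to 24677700 had 54.7% and 73.3%, against 97.8% in WT. The lower dyads were at 24678303, 24677277, 24678296, 24678334 and 24677866, of which the first 4 were at 0% in both h3.3kd libraries, against 63.0% to 91.7% in WT. No tile and no dyad of *TOC1* was called higher. The 1 kb downstream of *TOC1* had 3.92% and 3.85% in h3.3kd 1 and 2, against 12.4% in WT.

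In the evening complex *ELF3* (chromosome 2, 11058944 to 11063324, plus strand), its scaffold, had the largest difference of the 10 genes. The level was 23.5% in h3.3kd 1 and 22.8% in h3.3kd 2, against 32.1% in WT (30.4 to 33.8), a difference of -8.96 points with an SD of 0.50 points (FDR 1.9e-12 and 1.6e-14). Of all genes tested, 2.93% had a lower difference. The loss sat in the 3′ part: the last 30% of *ELF3* had 22.9% and 19.1% in h3.3kd 1 and 2, against 48.6% in WT. The first 30% had 2.17% and 0.631%, against 0.589% in WT.

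Of the 34 *ELF3* tiles tested, 7 were called lower and 1 higher. Of the losses, 5 merged into a run of 900 bp (11061601 to 11062500) across introns and its last coding exon, with 31.7% in h3.3kd 1 and 26.8% in h3.3kd 2, against 76.9% in WT. The run also holds tiles that were not called. The one at 11061801 to 11061900 was at 0% in all 3 libraries. The one at 11061701 to 11061800 had 4.44% and 5.26% in h3.3kd 1 and 2, against 3.13% in WT. The called tiles of this run, apart from the printed one, were at 62.8% and 62.0%, against 94.7% in WT, at 11061601 to 11061700, and at 37.0% and 22.8%, against 93.8% in WT, at 11062101 to 11062200. The tile at 11062201 to 11062300 had 39.3% and 37.5%, against 96.8% in WT, and the tile at 11061901 to 11062000 had 35.8% and 41.2%, against 90.4% in WT. The gain lay just before the run (11061401 to 11061500), with 27.7% and 25.3%, against 1.47% in WT. Of its 11 lower dyads, 4 were under 10% in both h3.3kd libraries, such as 11062184 with 2.94% and 2.08%, against 93.3% in WT. The others with the largest differences were at 11062442, 11062433, 11063103 and 11063105. The higher dyads were at 11062997, with 58.5% and 56.2%, against 2.70% in WT, and at 11061491, with 57.5% and 52.5%, against 0% in WT. *ELF3* overlaps an antisense RNA gene on the other strand in its 5′ part and a protein-coding gene over its last 24 bases, which hold no CG site.

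*LUX* (chromosome 3, 17183042 to 17186959, plus strand), the DNA-binding member, had 5.46% in h3.3kd 1 and 5.76% in h3.3kd 2, against 8.83% in WT (7.98 to 9.76; FDR 5.1e-08 and 7.0e-07). All of this difference lay where the longest *LUX* transcript overlaps AT3G46650, a protein-coding gene on the other strand. In the 1507 bases shared with it the level was 14.9% in h3.3kd 1 and 16.4% in h3.3kd 2, against 25.6% in WT. In the other 2411 bases of *LUX*, which hold its coding sequence, it was 0.573% and 0.868%, against 0.689% in WT. Both tiles called lower (17186701 to 17186900) were in the shared part, with 37.8% and 43.2% in h3.3kd 1 and 2, against 77.8% in WT, and so were its 4 lower dyads (17186798, 17186820, 17186420 and 17186408). The tile at 17186801 had 21.1% and 28.8%, against 80.5% in WT, and the tile at 17186701 had 48.3% and 50.7%, against 76.3% in WT. Methylation of a CG dyad belongs to both strands, and the part of either gene in it cannot be told apart.

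**Figure D3:**
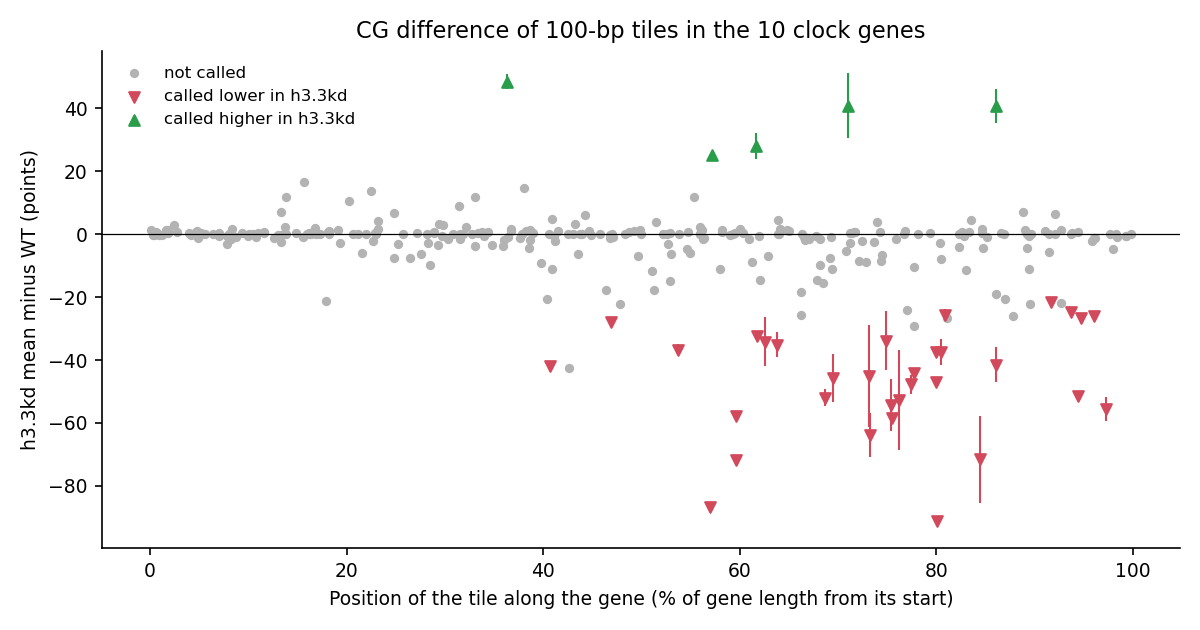
Difference in CG level between the h3.3kd mean and WT (points) of each of the 313 tiles tested in the 10 clock genes, by position along the gene (% of its length from the start). Lines on called tiles run between the values of h3.3kd 1 and h3.3kd 2, the 32 losses reach from 40.7% to 97.2% of the gene, and the 5 gains from 36.3% to 86.0%.

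*GI* (chromosome 1, 8061751 to 8067790, plus strand), a large nuclear and cytosolic protein that also promotes flowering, was the most methylated of the 10. It had 38.5% in h3.3kd 1 and 36.0% in h3.3kd 2, against 42.6% in WT (41.2 to 44.0; FDR 1.6e-04 and 9.6e-11). The SD between the h3.3kd libraries, 1.81 points, was the largest of the 10. Of its tiles 5 were called lower and 0 higher. The tile at 8065301 to 8065400 was at 0% in both h3.3kd libraries (of 31 and 30 calls), against 71.8% in WT (of 39 calls). The tile at 8066801 to 8066900 had 27.6% and 0% in h3.3kd 1 and 2, against 85.3% in WT, and the tile at 8065901 to 8066000 had 44.6% and 29.4%, against 82.8% in WT. The remaining ones had 55.6% and 23.6%, against 92.3% in WT, at 8066301 to 8066400, and 42.8% and 53.7%, against 89.7% in WT, at 8066901 to 8067000. Of its dyads 8 were called lower and 2 higher, the higher ones at 8066252, with 73.1% and 73.2%, against 0% in WT, and at 8067273, with 33.3% and 42.9%, against 0% in WT. The lower ones with the largest differences were at 8065942, 8065343, 8066936, 8066870 and 8066638.

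*ZTL* (chromosome 5, 23241320 to 23244590, plus strand) had the smallest difference over the gene body among the methylated clock genes. It had 27.8% in h3.3kd 1 and 26.9% in h3.3kd 2, against 29.7% in WT (28.2 to 31.2), and neither library passed the threshold (FDR 0.16 and 0.020). The difference was -2.36 points, and it was -4.01 points as a mean over dyads, beyond those of *CCA1*, *LUX* and *PRR5* on that scale. Without h3.3kd 1 it was -2.83 points, with -2.13 points in *CCA1*. In *ZTL*, 2 tiles were called lower. The tile at 23243801 to 23243900 had 48.1% and 42.3%, against 93.0% in WT, and the one at 23242601 to 23242700 had 20.2% and 18.6%, against 61.4% in WT. At the dyad at 23243842 the level was 0% in both h3.3kd libraries (of 36 and 27 calls), against 100% in WT (of 18 calls), and the other lower dyads were at 23242660 and 23242673.

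**Figure D4:**
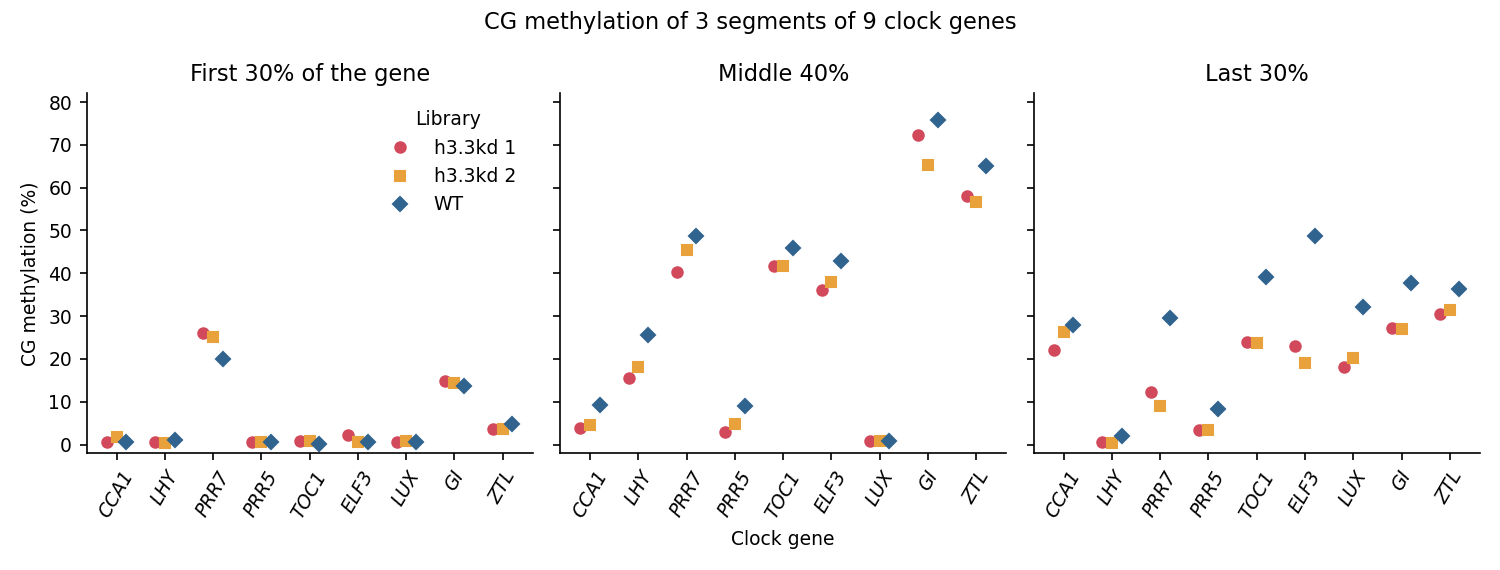
CG methylation (%) of the first 30%, the middle 40% and the last 30% of 9 clock genes in h3.3kd 1, h3.3kd 2 and WT. In the last 30% both h3.3kd points lie below WT in all 9, by 27.6 points in the mean of *ELF3*, while in the first 30% *PRR7* has the only difference over 2 points, above WT.

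With the calls of the 10 genes summed, the difference from WT was largest in the last 30% of the gene. There the level was 18.7% in h3.3kd 1 and 18.5% in h3.3kd 2, against 30.3% in WT, a difference of -38.6% relative to WT. The middle 40% had 32.8% and 32.9%, against 37.3% in WT, a difference of -11.9%, and the first 30% had 6.62% and 6.33%, against 5.77% in WT. The genes differed in this. In *ELF3*, *PRR7*, *TOC1*, *LUX* and *GI* the last 30% had the larger difference in points, and in the other methylated genes the middle 40% did, with -8.69 points in the middle and -1.35 points in the last part of *LHY*, -7.65 and -5.41 points in *ZTL*, -5.03 and -3.68 points in *CCA1*, and -5.05 and -4.91 points in *PRR5*. The difference between the segments was not tested. Over all protein-coding genes these segments differed by -18.5% (last), -8.50% (middle) and -7.36% (first) of the WT level. Tested by segment, a choice made after seeing the data, 5 clock genes were called lower in the last 30%: *ELF3*, *PRR7*, *TOC1*, *LUX* and *GI*, of which *LUX* has this segment within the part shared with AT3G46650. *PRR9* had too few calls there to be tested. Over all genes 10.5% were called lower and 1.3% higher in this segment, and 28.7% lower among genes with a WT level of at least 20% there. The 5 called clock genes were all at that WT level, and so were *CCA1* (27.9%) and *ZTL* (36.4%), which were not called. In the middle 40% none of the 10 was called, with a background of 4.53% lower and 1.37% higher, and likewise in the first 30%, with 0.826% lower and 0.5% higher.

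By annotated part of the gene, coding exons of the 10 genes had 23.9% in h3.3kd 1 and 23.8% in h3.3kd 2, against 29.7% in WT. Introns had 22.1% and 21.8%, against 25.6% in WT. The 5′ UTRs were unmethylated, with 0.827% and 0.598%, against 0.562% in WT. The 3′ UTRs had 0.520% and 0.498%, against 5.02% in WT, and this difference lay mostly in *TOC1*. In WT the 3′ UTR of *TOC1* held 64 methylated calls (20.3%), and no other one was above 2.22%. *CCA1*, *PRR9*, *PRR5* and *ZTL* had no CG calls in a 3′ UTR. Restricted to coding exons, the difference of *PRR7* was -12.8 points, with 4.35 points in the other direction in its introns. These introns had 34.6% and 39.2% in h3.3kd 1 and 2, against 32.5% in WT. *ELF3* had -13.9 points in coding exons and -12.1 points in introns. In *GI* and *ZTL* the introns had the larger fall, -15.0 and -7.20 points, beside -7.14 and -3.85 points in coding exons. In *CCA1*, *LHY*, *PRR5* and *TOC1* the coding exons had the larger fall.

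Counted as tiles, 32 of the 313 tested in the clock genes were called lower (10.2%) and 5 higher (1.60%). Of all tiles tested 2.59% were lower and 1.19% higher, and of those that overlap protein-coding gene bodies 3.91% were lower and 1.57% higher. A tile can lose 20 points only where it was methylated in WT: 115 clock tiles had at least 20% there, of which 27.8% were called lower, against 17.4% of such tiles in all gene bodies. This share ranged from 14.3% in *GI* and *ZTL* to 50% in *ELF3* and 66.7% (2 of 3 tiles) in *PRR5*. Of the 32 losses, 30 lay past the midpoint of the gene and 21 past 70% of its length, while 73 and 43 of the 115 methylated tiles did. None of the 94 tiles in the first 30% was called. The called tiles rested on 28 to 172 calls per library, and a level of 0% in a called tile allows up to 2.14% to 10% by counting error, and in a called dyad 6.67% to 13.0%, taking 3 calls as the limit.

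Counted as dyads, 50 of the 851 tested were called lower (5.88%) and 11 higher (1.29%), beside 1.63% lower and 0.9% higher over all dyads. That background takes in dyads outside genes and dyads unmethylated in WT. No share was counted for dyads of gene bodies or of like WT level, so the excess cannot be read as particular to these genes. Of the 50 losses, 36 lay in coding sequence and 7 in introns. At 29 of them both h3.3kd libraries were under 10%, at 45 WT was at 60% or more, and 24 met both. The 11 gains were all under 10% in WT, and 3 were at 60% or more in both h3.3kd libraries. Over all tested dyads of the clock genes, 163 in h3.3kd 1 and 171 in h3.3kd 2 were at 60% or more, against 236 in WT. Between 10% and 60% there were 78 and 66, against 21 in WT.

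The h3.3kd libraries also differed from each other. In h3.3kd 2 the level was lower than in h3.3kd 1 in 4 of the 313 clock tiles tested and higher in 1. Over all tiles 1.21% were lower and 0.704% higher, so the share of lower clock tiles was close to that of all tiles. The tile that was higher, in *LHY* at 35901 to 36000, had 81.4% in h3.3kd 2 and 6.25% in h3.3kd 1 (FDR 1.5e-11), with 86.4% in WT. Of the lower ones 3 were in *GI*, such as 8064501 to 8064600 with 42.6% in h3.3kd 2 and 95.6% in h3.3kd 1, with 86.7% in WT. The fourth was the *PRR7* tile at 638801 to 638900, with 30.7% in h3.3kd 2 and 63.1% in h3.3kd 1, with 92.0% in WT. The *PRR7* tile is also among those called lower than WT in both libraries.

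Upstream of the genes 8 of the 10 were unmethylated in all libraries, with at most 1.91% over 1 kb. The exceptions were *ELF3*, with 52.2% in h3.3kd 1 and 52.8% in h3.3kd 2, against 60.1% in WT, and *ZTL*, with 55.6% and 56.1%, against 59.95% in WT. *ELF3* passed the FDR in both libraries (0.0032 and 0.0062) without reaching 10 points, so none of the 10 was called. Over all genes 2.39% of upstream windows were called lower and 0.747% higher. At an unadjusted Fisher p under 0.05 in both libraries, where the share of all genes was not counted, 1 clock gene was lower and 0 higher. In *ZTL* the last 250 bp before the gene start had 80.4% and 82.7%, against 86.4% in WT. The tile across this start (23241301 to 23241400) had 0% in both h3.3kd libraries (of 233 and 257 calls), against 0.370% in WT (of 270 calls). In *ELF3* the last 250 bp had 0.474% and 0.510%, against 0.488% in WT, so its upstream methylation lay further from the gene.

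The evening element (AAAATATCT, searched on both strands) is the motif through which CCA1 and LHY act on evening genes. It was present once in the 250 bp before the gene start of *LUX*, *PRR5* and *TOC1*, and in 2.36% of the 27443 windows of this kind. The windows of *LUX* and *TOC1* are printed, in TAIR10.1 coordinates and on the strand of the gene, with the motif or its reverse complement in capitals. *PRR5* is not printed because its gene model has no 5′ UTR. *LUX* lies at chr3:17182792-17183041 and *TOC1* at chr5:24674713-24674962, both on the plus strand.
LUX promoter: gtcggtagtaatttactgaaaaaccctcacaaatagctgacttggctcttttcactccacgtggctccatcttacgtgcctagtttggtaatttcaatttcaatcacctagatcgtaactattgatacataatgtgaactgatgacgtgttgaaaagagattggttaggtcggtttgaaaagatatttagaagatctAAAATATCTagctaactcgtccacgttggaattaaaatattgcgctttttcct
TOC1 promoter: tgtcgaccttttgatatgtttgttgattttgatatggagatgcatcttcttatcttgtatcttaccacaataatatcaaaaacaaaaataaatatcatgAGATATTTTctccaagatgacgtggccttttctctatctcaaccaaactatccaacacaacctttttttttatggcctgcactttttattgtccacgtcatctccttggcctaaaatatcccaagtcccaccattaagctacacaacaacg
The motif begins 53 bases before the gene start in *LUX* and 151 bases before it in *TOC1*, and its letters hold no CG. The CG sites in the windows had few methylated calls: *LUX* had 2 of 413 calls methylated in h3.3kd 1 and 4 of 440 in h3.3kd 2, against 0 of 413 in WT, and *TOC1* had 1 of 151 and 2 of 161, against 1 of 160 in WT.

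Methylation outside CG was near the floor in all clock genes. The CHG level of the gene bodies was between 0.364% and 0.859% and the CHH level between 0.423% and 0.643% in all 3 libraries, and none of the 10 was called in either. Over all genes, 0.186% were called lower and 0.0408% higher in CHG, and 0% in either direction in CHH. At an unadjusted Fisher p under 0.05 in both libraries, 0 clock genes were lower or higher in CHG, and 0 were lower and 1 higher in CHH. Shares of all genes at this unadjusted threshold were not counted. Unconverted cytosine is read as methylated, so levels of this size do not tell methylation from failed conversion.

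**Figure D5:**
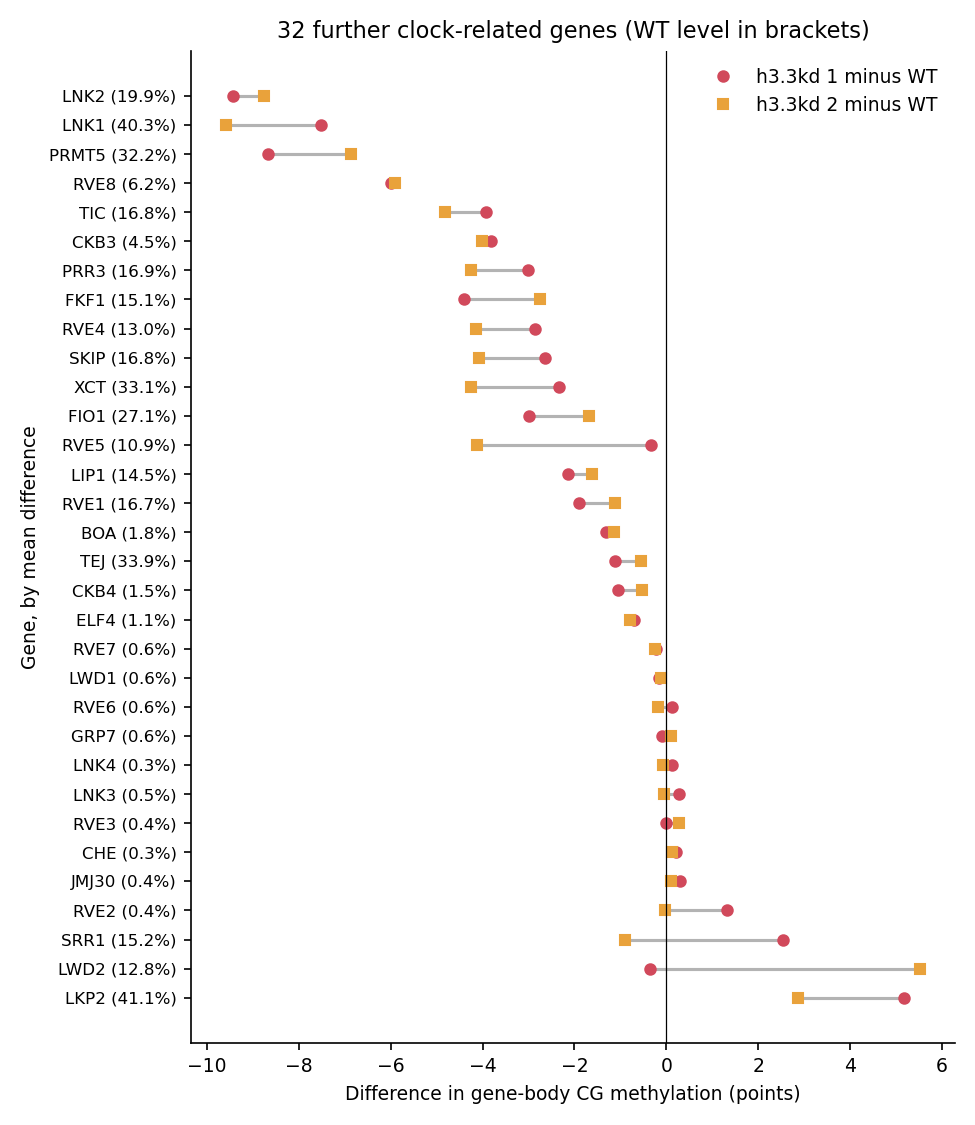
Difference in gene-body CG level from WT (points) of 32 further clock-related genes in h3.3kd 1 and h3.3kd 2, with the WT level in brackets. *LNK2*, *LNK1* and *PRMT5* lie furthest to the left, and the 13 genes under 2% in WT lie between -1.32 and 1.32 points.

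Of 32 further genes that act in or on the clock, 8 were lower in both libraries at an FDR under 0.01 with no minimum difference, and 0 higher, beside 19% lower and 4.84% higher over all genes. Their median difference was -1.04 points, with 21 lower (65.6%) and 3 higher in both h3.3kd libraries, beside 51.8% of all genes lower in both. With their calls summed, the level was 12.6% in h3.3kd 1 and 12.4% in h3.3kd 2, against 15.1% in WT. None was called at 10 points, and at an unadjusted Fisher p under 0.05 in both libraries 11 were lower and 1 higher. How many of all genes passed this unadjusted threshold was not counted. *LNK2*, a coactivator that works with RVE8, had 10.5% in h3.3kd 1 and 11.1% in h3.3kd 2, against 19.9% in WT. Its partner *LNK1* had 32.7% and 30.7%, against 40.3% in WT, and *PRMT5*, an arginine methyltransferase that affects splicing of clock transcripts, had 23.5% and 25.3%, against 32.2% in WT. The largest difference above WT was in *LKP2*, a relative of *ZTL*, with 46.2% and 43.9%, against 41.1% in WT (FDR 2.0e-04 and 0.054). The next in rank, *CHE*, was unmethylated, with 0.493% and 0.413%, against 0.291% in WT. Of the 32 genes, 13 were under 2% in WT.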

How the data were processed

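Genomic DNA of mature leaves was bisulfite sequenced in 2 h3.3kd libraries and 1 WT library. The authors collapsed identical reads, mapped them with BS Seeker to TAIR10 (version and settings not given in the sources used here) and deposited counts of C and T calls per cytosine with its context. Calls given for a site on 2 lines (1.23% to 1.25% of sites) were summed. Genes were found by locus tag in the TAIR10.1 annotation, and feature classes follow the transcript with the longest coding sequence.

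The members and gene lists were chosen with earlier results of these data known. Fisher's exact tests on summed counts were adjusted over all features of chromosomes 1 to 5. A call needed an FDR under 0.01 in both h3.3kd libraries and a difference of one sign, of at least 10 points for genes (with a minimum of 10 CG sites and of 100 calls per library) and upstream 1 kb windows (5 sites and 50 calls), or 20 points for tiles of 100 bp (20 calls) and dyads (10 calls). The study's criteria for tiles cover losses, and the mirror rule for gains was added here. limma 3.58.1 on log2((C + 0.5)/(T + 0.5)) was an alternative. All 10 genes are named, with at most the 5 called tiles and dyads of largest smaller-of-both difference in each direction, and from 32 further clock genes the 3 largest falls and the 2 largest rises. Calculations used Python 3.11.15, scipy 1.17.1 and R 4.3.3 and were tested on simulated data.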

Additional observations from a re-analysis of the deposited data

How the results depend on the processing

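With 1 WT library no test here separates genotype from library. The 1067 to 5365 CG calls per gene and library, taken as independent, set the counting error only, which leaves out variation between libraries. None of the 10 clock genes was called over the gene body at 10 points, and 2 were called lower at 5 points (8.68% of all genes). With no minimum difference 7 were called lower (19% of all genes). In the last 30% of the gene 5 were called lower, beside 10.5% of all genes tested there. Among those with a WT level of at least 20% there it was 28.7%. These last 2 settings were chosen after seeing the data. In the 32 further genes these counts were 0 at 10 points, 4 at 5 points and 8 with no minimum (19% of all genes). A minimum of 40 points left 15 lower and 1 higher tiles, instead of 32 and 5. The other alternatives, without either h3.3kd library included, kept the counts within 1.5 times: 27 to 39 lower and 4 to 6 higher tiles, and 46 to 66 lower and 9 to 14 higher dyads. Shares over all tiles and all dyads were counted at the main settings only. limma, with 1 residual degree of freedom, called 0 genes among all tested. The difference of *LUX* turned to 0.0831 points in coding exons only and to 0.0316 points without the bases shared with AT3G46650. The difference of *ELF3* was -13.9 points in coding exons and -11.8 points as a mean over dyads, beyond 10 points, and that of *PRR7* was -12.8 points in coding exons. In coding exons and as a mean over dyads, *TOC1* had -7.43 and -7.58 points, instead of -4.82, and *ZTL* -3.85 and -4.01 points, instead of -2.36. No paired analysis was possible because WT had 1 library.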
